A study of Mus musculus with 10 samples.

Results

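The neurofilament and neuronal intermediate filament genes comprised 7 of the 36009 genes measured, chosen by name as Nefl, Nefm, Nefh, Ina, Prph, Nes and Vim. All 7 had a row in the count table, and 5 of them passed the filter on low counts described with the processing (Nefl, Nefm, Nefh, Nes and Vim). Ina and Prph did not pass. The group was assembled with the difference of Nefl and Nefm between responders and non-responders already known, so member differences are described below with no p-value. RNA was sequenced from 10 subcutaneous tumors of CT26, a carcinoma line of the mouse colon, grown in wild-type female BALB/c mice whose age the labels do not give. All tumors were sampled at surgery, untreated, before a hydrogel loaded with poly(I:C), a double-stranded RNA mimic, was laid on the tumor left behind. The 6 responders were mice labelled RS, whose tumors later regressed completely, and the 4 non-responders were mice labelled NR, whose tumors grew without delay. Tumors are numbered in accession order within each group, and nothing in the labels ties a responder to a non-responder.

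Intermediate filaments are rope-like cytoskeletal polymers built from coiled-coil proteins, and cell types differ in which members they use. In mature neurons the light, medium and heavy neurofilament chains, with alpha-internexin or peripherin, form the filaments that fill and widen axons, and the light chain is needed for the others to assemble. Nestin is known from neural progenitors and from dividing mesenchymal, endothelial and tumor cells, and vimentin is the general filament of mesenchymal cells.

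Total estimated counts, the sum of the reads assigned to genes in a library, were between 29065126 and 38042544 in responders and between 23374649 and 32986456 in non-responders. Values are given as CPM, the counts of a gene relative to the scaled library total, in parts of 1000000, and a count of 3 was used as the floor of detection, which corresponded to 0.0783 to 0.130 CPM. All 45 pairs of libraries differed by far more than sampling noise (chi-square per degree of freedom 10.8 to 120.5), so none was treated as a duplicate. The labelled cell type was checked against 10 colon epithelium genes. They were unequal in level, with 98 counts of Epcam, 39.5 of Krt8, 15 of Krt18 and 1 of Cdx1 over all tumors, but 1464 counts of Cdh1 and 224 of Cdx2. Krt18 and Cdx1 were at or under the floor in every tumor, while Epcam reached 0.709 CPM and Krt8 0.565 CPM in the highest tumor. Krt20 reached 29.1 ± 9.80 CPM in the responder group (SD, n = 6) against 52.9 ± 18.5 CPM in the non-responder group (SD, n = 4). Over all 16041 genes that passed the filter, edgeR called 1293 (8.06%) at an adjusted p under 0.05, with 756 higher (4.71%) and 537 lower (3.35%) in responders. That count changed with the tumors included. Without non-responder 1 it was 16, without responder 3 it was 17, and without non-responder 4 it was 0. In these fits 3654, 4051 and 4106 genes had an unadjusted p under 0.05, against 4665 with all tumors. The count rose to 1897 without non-responder 2 and to 1619 without responder 4.

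Of the 7 members, 2 were among the genes called (Nefl and Nefm), both lower in responders, against 3.35% of all genes tested that were called in that direction. In these 2 genes every responder also lay below every non-responder, which was so for 4.55% of all genes tested. Nefh, Nes and Vim had overlapping groups and were not called. Since the members were chosen with this contrast known, nothing is read from these counts. No member was called higher in responders (4.71% of all genes tested) or had every responder above every non-responder (5.84%). In bulk tissue, fewer cells that express a gene and less RNA of that gene per cell cannot be told apart.

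Nefl and Nefm are neighbors on chromosome 14 of the GRCm38 assembly and are transcribed from opposite strands. Nefl (ENSMUSG00000022055) lies on the plus strand at chr14:68083863-68089095, and Nefm (ENSMUSG00000022054) on the minus strand at chr14:68082590-68124846, so the Nefm span holds all of Nefl. GENCODE annotates 1 Nefl transcript, Nefl-201, and 2 Nefm transcripts. The short Nefm transcript, Nefm-201, ends before Nefl and shares 0 exonic bases with it. The other, Nefm-202, runs on across a long intron, and its exon 4 lies antisense to exon 1 of Nefl-201 over 1108 bases (chr14:68083863-68084970). These bases make up 32.78% of Nefl-201 and 30.11% of Nefm-202, and 1008 of them are coding in Nefl and 144 in Nefm-202. The inner end of the overlap is printed because it holds the border between the sequence of both genes and that of 1 of them. Capitals mark 90 bases that both transcripts hold. In the Nefl-201 sequence (plus strand, chr14:68084881-68085009) they are followed by 39 bases of the same exon that only Nefl holds. In the Nefm-202 sequence (minus strand) they are the reverse complement (chr14:68084881-68084970) and follow the last 30 bases of exon 3 (chr14:68115950-68115979). All printed bases are coding in their transcript.
Nefl-201: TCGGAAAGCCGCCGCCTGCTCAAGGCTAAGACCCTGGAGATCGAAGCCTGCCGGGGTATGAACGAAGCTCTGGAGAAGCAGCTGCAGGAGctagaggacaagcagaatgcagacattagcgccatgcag
Nefm-202: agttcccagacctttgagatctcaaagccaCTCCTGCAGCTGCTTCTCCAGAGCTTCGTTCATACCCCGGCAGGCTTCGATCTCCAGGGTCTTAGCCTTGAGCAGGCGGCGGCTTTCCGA

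**Figure D1:**
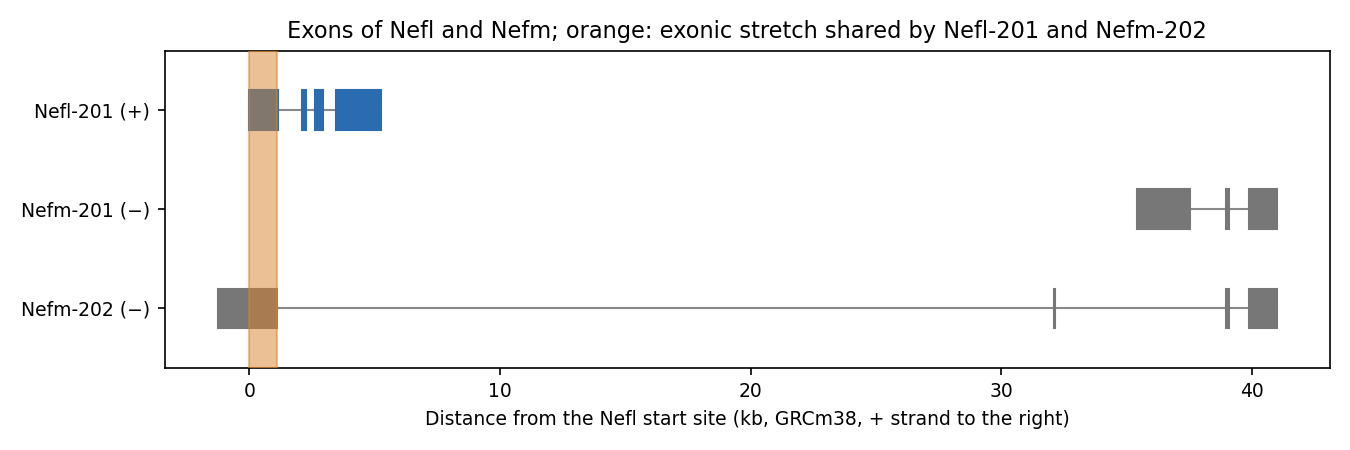
Exons of the annotated transcripts of Nefl and Nefm, drawn to scale by distance in kilobases from the Nefl start site, with the strand beside each transcript name. Boxes are exons, lines are introns, and the orange band marks the 1108 exonic bases held by both Nefl-201 and Nefm-202, which Nefm-201 does not reach.

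The deposited counts were made by pseudoalignment, which assigns a read by the short words it holds, here taken as words of 31 bases read on both strands. Of the 3350 distinct words of Nefl, 1078 (32.18%) also occur in Nefm, and they are 18.79% of the 5738 words of Nefm. Nefm and Prph share 5 words, and the other 19 of the 21 member pairs share 0. Outside the group, Nefl, Nefh and Nes share 0 words with any other annotated gene, while Ina shares 426 (13.27% of its words) with Nt5c2, Vim 9 with Krt75, Prph 6 with Des and Nefm 13 with genes outside the group. The sources used here do not give the strand setting of the counting, and without strand a read from the shared stretch cannot be assigned to Nefl or Nefm by its sequence.

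Fractional counts were common in both genes. Nefl and Nefm counts were fractional in 8 tumors each, whereas their sum was a whole number (within 0.01) in 9 of 10 tumors, the exception being responder 1 with 75.59. In responder 4, with 78 and 79 counts, and in non-responder 3, with 140 and 137, both genes were whole on their own. Nefm received between 32.4% and 50.3% of the summed count, with a mean of 39.9% ± 7.26 among the responders (SD, n = 6) against 46.8% ± 3.94 among the non-responders (SD, n = 4), and the groups overlapped in this share.

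The sum of the 2 genes does not depend on how shared reads were split between them. In responders it was lowest at 2.10 CPM, with 3.06 CPM in responders 2 and 3 and a highest value of 5.18 CPM in responder 4. In non-responders 1 to 4 it was 19.9, 10.4, 12.0 and 10.3 CPM. Every non-responder lay above every responder, and non-responder 1 stood well above the other non-responders. The means were 3.17 ± 1.06 CPM (SD, n = 6) and 13.2 ± 4.59 CPM (SD, n = 4), and the log2 fold change of responders over non-responders with both genes summed before the fit was -2.05 (SE 0.25).

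**Figure D2:**
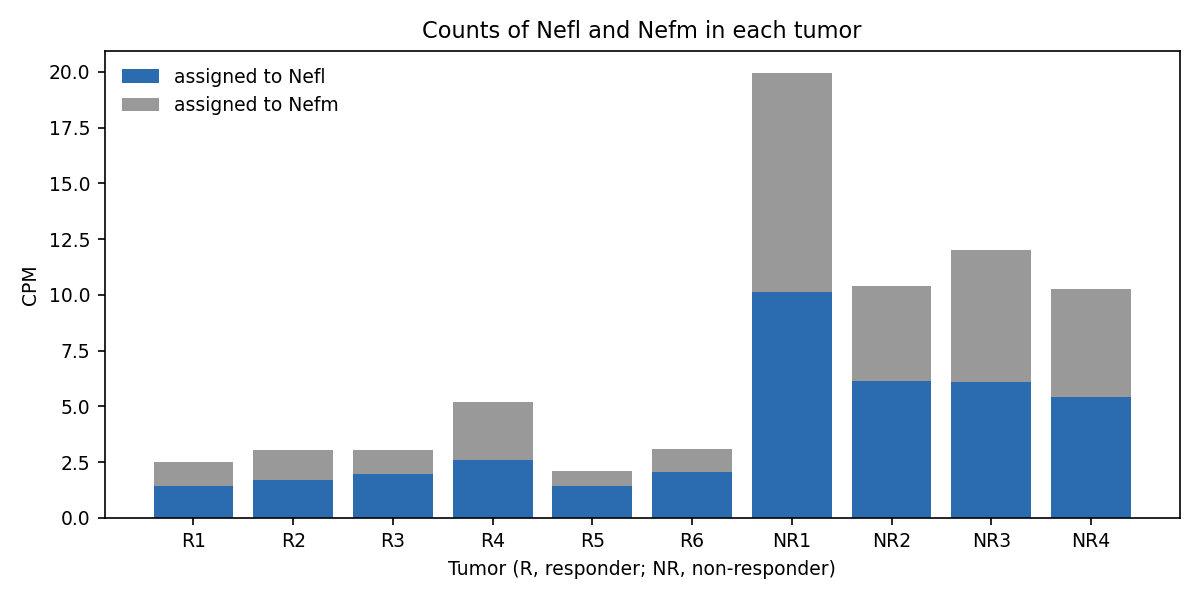
Stacked bars give the CPM assigned to Nefl (blue) and to Nefm (grey) in each of the 6 responders (R1 to R6) and 4 non-responders (NR1 to NR4). The summed bars of the non-responders are between 10.3 and 19.9 CPM, and the highest responder bar, R4, is 5.18 CPM.

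Nefl, which encodes the light chain at the core of the neurofilament, was lower in responders. Responders ranged from 1.43 to 2.57 CPM with a median of 1.84 CPM, and non-responders 1 to 4 had 10.1, 6.12, 6.07 and 5.43 CPM. The lowest non-responder was thus above the highest responder, which was responder 4. The mean was 1.86 ± 0.441 CPM in the responder group (SD, n = 6) against 6.93 ± 2.13 CPM in the non-responder group (SD, n = 4), which gave -1.89 as log2 fold change (SE 0.21). The tumor-to-tumor spread was larger than counting error, with a coefficient of variation of 23.7% in responders and 30.8% in non-responders where counting alone gives 12.9% and 7.38%. Without non-responder 1, the log2 fold change was -1.65.

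Nefm, the medium chain, which carries a long tail that projects from the filament, had the same order of groups. Responders ranged from 0.671 CPM in responder 5 to 2.61 CPM in responder 4, with a median of 1.08 CPM. Non-responders 1 to 4 had 9.85, 4.29, 5.94 and 4.83 CPM. As with Nefl, responder 4 was the highest responder, non-responder 1 the highest of all tumors, and the groups did not overlap. The means were 1.31 ± 0.676 CPM (SD, n = 6) and 6.23 ± 2.51 CPM (SD, n = 4), and the log2 fold change was -2.26 (SE 0.34), or -1.94 without non-responder 1. The coefficient of variation was 51.8% in responders and 40.3% in non-responders, against 15.5% and 7.81% from counting alone. Because of the shared stretch, the Nefl and Nefm values are not independent of each other, and gene-level counts cannot tell Nefm-201 from Nefm-202.

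Nefh (ENSMUSG00000020396, chr11:4938754-4948064, minus strand), the heavy chain and the most heavily phosphorylated neurofilament subunit, was close to the floor. Responders 1 to 6 had 10, 6, 13, 11, 16 and 12 counts. Non-responders 1 to 4 had 1, 10, 4 and 13 counts, so that the groups overlapped and 9 of 10 tumors were above the floor. Non-responder 1, the tumor with the most Nefl and Nefm, had the fewest Nefh counts. In CPM the means were 0.349 ± 0.0972 for the responders (SD, n = 6) against 0.245 ± 0.168 for the non-responders (SD, n = 4). The log2 fold change was 0.45 with an SE of 0.44, and the pooled levels of 0.348 CPM (exact 95% Poisson interval 0.270 to 0.441) and 0.260 CPM (0.173 to 0.375) had overlapping intervals, which cover counting error only. The coefficient of variation was 27.9% in responders and 68.8% in non-responders, where counting alone gives 29.7% and 37.8%.

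Ina (ENSMUSG00000034336, chr19:47014698-47025327, plus strand), which encodes alpha-internexin of central neurons, had at most 1 count in any tumor and 2 counts in each group. By the exact 95% Poisson interval these allow pooled levels of up to 0.0370 CPM in responders and 0.0670 CPM in non-responders. Prph (ENSMUSG00000023484, chr15:99055174-99058978, plus strand), which encodes peripherin, the filament protein typical of peripheral neurons, had 0, 8, 2, 0, 4 and 1 counts in responders 1 to 6, whereas non-responders 1 to 4 had 0, 3, 4 and 3. It exceeded the floor in 3 tumors, from both groups. The pooled level of Prph was 0.0767 CPM (0.0429 to 0.127) in responders and 0.0928 CPM (0.0445 to 0.171) in non-responders. No fold change is given for Ina or Prph, since they were at or under the floor in most tumors.

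Nes (ENSMUSG00000004891, chr3:87971078-87980451, plus strand), which encodes nestin, was abundant and differed little between groups. Responders ranged from 224.5 to 267.0 CPM with a median of 243.8 CPM, and non-responders 1 to 4 had 294.8, 248.4, 281.3 and 244.7 CPM. The ranges overlapped, although the highest tumor was again non-responder 1. The means were 247.2 ± 16.5 CPM (SD, n = 6) and 267.3 ± 24.6 CPM (SD, n = 4), which gave -0.11 as log2 fold change (SE 0.07).

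Vim (ENSMUSG00000026728, chr2:13573927-13582826, plus strand), which encodes vimentin, was the most abundant member. Responders ranged from 3015 to 3595 CPM with a median of 3299 CPM, and non-responders 1 to 4 had 3657, 2838, 2899 and 3136 CPM. Both the highest and the lowest tumor were non-responders, so the groups overlapped. The means were 3309 ± 215.0 CPM (SD, n = 6) and 3133 ± 372.7 CPM (SD, n = 4), which gave 0.08 as log2 fold change (SE 0.08). In Nes and Vim the coefficient of variation was between 6.50% and 11.9% within a group, far below that of Nefl and Nefm.

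**Figure D3:**
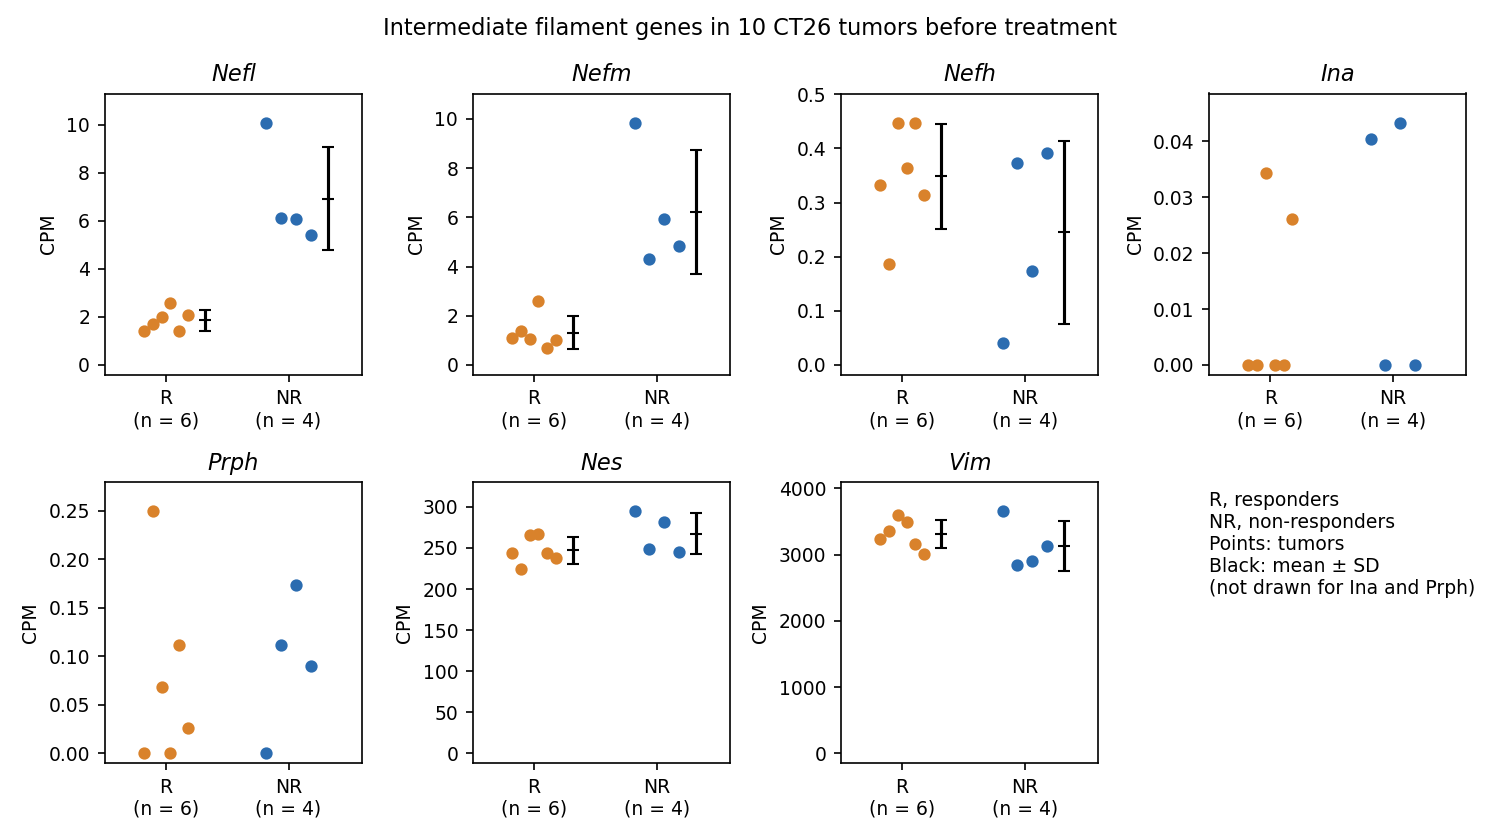
CPM of each member in every tumor (points; R, responders, n = 6; NR, non-responders, n = 4), with the mean and SD in black beside each group except for Ina and Prph; each panel has its own linear axis. The groups are apart in Nefl and Nefm and overlap in the other 5 members.

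Levels of different genes were compared per kilobase of exon (RPKM, the CPM of a gene divided by the length of its merged exons in kilobases). The median over the 10 tumors was 673.9 RPKM for Vim (range 598.4 to 771.1), 38.4 for Nes (35.0 to 45.9), 0.686 for Nefl (0.422 to 2.99), 0.344 for Nefm (0.116 to 1.70), 0.0871 for Nefh (0.0101 to 0.112), 0.0398 for Prph (0 to 0.125) and 0 for Ina (0 to 0.0134). On this scale of level per kilobase, the ranges of Vim, Nes and Nefl were apart from each other. Nefl and Nefm overlapped, the lowest Nefm value lay just above the highest of Nefh, and Nefh, Prph and Ina overlapped in turn. The order of the medians was the same with the longest transcript as the length, where Nefm had 0.541 and Vim 1092 RPKM.

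Within the 6 responders, 5 pairs of members were compared by log2 CPM, a measure of covariation that the choice of members did not use. None passed an exact two-sided permutation test after Benjamini-Hochberg adjustment over the 5 pairs. For Nefl and Nefm, Pearson's r was 0.754 (exact permutation p = 0.0778, adjusted p = 0.389) and Spearman's rho 0.486 (exact permutation p = 0.356, adjusted p = 0.658). With responders 4 and 5 left out, whose Nefl lay farthest from the median, r was -0.39. Reads split between the 2 genes enter both values of this pair. Leaving out the most extreme tumors narrows the range of the first gene and leaves few tumors, so nothing is concluded from r without them. Nes and Vim gave r = 0.603 (exact permutation p = 0.197, adjusted p = 0.405) and rho = 0.6 (exact permutation p = 0.242, adjusted p = 0.658), and r = -0.55 without responders 3 and 4. For Nefl with Nes the values were r = 0.554 (exact permutation p = 0.243, adjusted p = 0.405) and rho = 0.371 (exact permutation p = 0.497, adjusted p = 0.658), with r = 0.293 when the same 2 tumors as for Nefl and Nefm were left out. For Nefl with Vim they were r = 0.397 (exact permutation p = 0.424, adjusted p = 0.530) and rho = 0.314 (exact permutation p = 0.564, adjusted p = 0.658), and r fell to -0.00656 without those tumors. For Nefl with Nefh they were r = 0.0518 (exact permutation p = 0.939, adjusted p = 0.939) and rho = -0.257 (exact permutation p = 0.658, adjusted p = 0.658), with r = 0.308 without them. No correlation was computed over the 4 non-responders, a group too small for one.

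The genes most like Nefl and Nefm were ranked by Pearson's r of log2 CPM over all 10 tumors among 13732 genes with a mean of at least 1 CPM. These values include the difference between the groups and are descriptive. The 5 genes most like Nefl were Mex3a (r = 0.979), Antxr2 (0.974), Yes1 (0.972), Jup (0.968) and Metap1 (0.967), and Nefm followed at rank 6 (r = 0.967). The 5 most like Nefm were Slc14a1 (0.987), Atg9b (0.986), Antxr2 (0.981), Prl (0.977) and Dlg3 (0.977). Antxr2, which encodes a collagen-binding receptor, was on both lists, with 82.5 ± 5.48 CPM in the responder group (SD, n = 6) against 112.8 ± 8.02 CPM in the non-responder group (SD, n = 4).

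Position was the next property examined. GENCODE lists 29 other genes whose spans lie within 1 Mb of Nefl and Nefm, of which 13 had a row in the table and 8 passed the filter. None of the 8 was called by edgeR, by DESeq2 or by limma-voom, and 0 of them had an unadjusted p under 0.05 with edgeR and 1 with each of the other tools. Their median log2 fold change was -0.12, beside -0.0086 for all genes tested. Stc1, which encodes a secreted glycoprotein hormone, had the smallest p (log2 fold change -0.41, SE 0.19, with an adjusted p of 0.172 from edgeR).

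Of 16 other intermediate filament genes, 12 passed the filter, and their median log2 fold change was 0.06. Des rose and Iffo2 fell in responders, and the other 10 did not pass the test. Des, the desmin of muscle, ranged from 63.5 to 152.1 CPM in responders and was 37.5, 73.3, 63.5 and 45.5 CPM in non-responders 1 to 4. The groups overlapped, and the log2 fold change was 1.04 with an SE of 0.27 (adjusted p = 0.0440 by edgeR). It did not pass with limma-voom (adjusted p = 0.0505). Iffo2, a little-studied gene of the family, ranged from 54.7 to 78.9 CPM in responders and was 98.8, 76.8, 90.4 and 89.8 CPM in non-responders 1 to 4. Only responder 4 and non-responder 2 overlapped (log2 fold change -0.45, SE 0.10, with an adjusted p of 0.0304 from edgeR). Over the 10 fits that each left out a tumor, Des passed in 2 and Iffo2 in 4, with no change of sign. The lamins, which line the nucleus, had log2 fold changes of 0.02 (Lmna), 0.09 (Lmnb1) and -0.05 (Lmnb2), and none was called. Skeletal muscle markers moved with Des, with 3 of 6 tested called higher in responders (Acta1, Myh1 and Ckm), none lower, and a summed level of 484.7 to 1314 CPM in responders against 353.5 to 475.5 CPM in non-responders. With each tumor left out in turn, Acta1 passed in 4, Myh1 in 5 and Ckm in 2 of 10 fits, and none of the 6 passed without responder 2, 3 or 5 or without non-responder 1 or 4. Ckm did not pass with limma-voom (adjusted p = 0.0837). Their part in the Des result was not tested.

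Of 19 genes for filament linkers, transport and turnover, 18 passed the filter, with a median log2 fold change of -0.03. Kif5c, a kinesin heavy chain of the family that carries neurofilaments along axons, rose in responders and was the only one of these 18 called. It ranged from 3.30 to 5.68 CPM in responders and was 1.17, 3.28, 3.25 and 1.15 CPM in non-responders 1 to 4, with no overlap (log2 fold change 1.14, SE 0.31, with an adjusted p of 0.0478 from edgeR). The margin between the lowest responder and the highest non-responder was small, and Kif5c passed in 2 of the 10 fits that left out a tumor. The related kinesins Kif5a and Kif5b had log2 fold changes of 0.37 (SE 0.19) and -0.05 (SE 0.04), and the crosslinkers Plec, Dst and Macf1 had -0.01, -0.16 and -0.05. None of these passed the test.

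REST is a transcriptional repressor that keeps many neuronal genes silent outside neurons, and 11 genes of its complex were all measured. None was called by edgeR or limma-voom, where 2 and 1 had an unadjusted p under 0.05, and DESeq2 called 1 (Hdac2). Rest had 99.5 ± 5.49 CPM in the responder group (SD, n = 6) against 106.7 ± 6.25 CPM in the non-responder group (SD, n = 4), or -0.10 as log2 fold change (edgeR adjusted p = 0.232). Hdac2, a histone deacetylase of the complex, had the smallest p (log2 fold change -0.11, SE 0.04, with an adjusted p of 0.0703 from edgeR). The median over the 11 genes was -0.07.

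**Figure D4:**
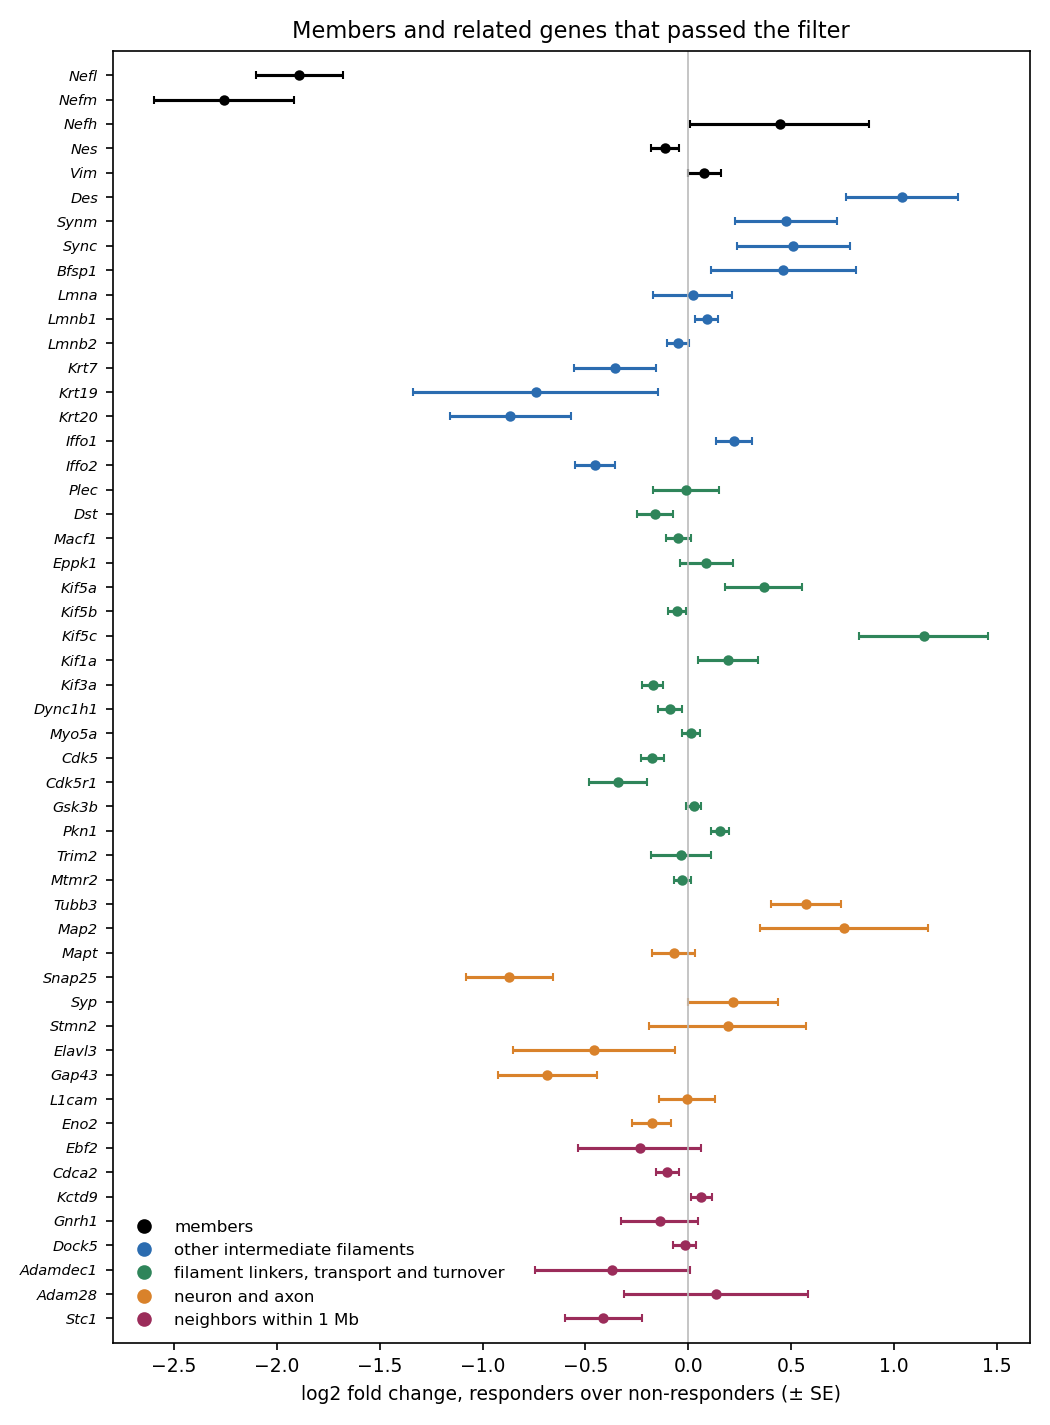
Log2 fold change of responders over non-responders (points, with SE as bars) for the members, genes of 3 related lists and the neighbors within 1 Mb that passed the filter. Nefl (-1.89) and Nefm (-2.26) lie farthest to the left of those drawn, while Nefh, Nes and Vim lie near 0 or to its right.

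Of 23 neuron and axon markers, 10 passed the filter, with a median log2 fold change of -0.04. Snap25, which encodes a synaptic vesicle fusion protein, fell in responders and was the only one of these 10 called. It ranged from 0.406 to 0.858 CPM in responders and was 1.09, 1.19, 1.08 and 1.03 CPM in non-responders 1 to 4, with no overlap (log2 fold change -0.87, SE 0.21, with an adjusted p of 0.0372 from edgeR). This call passed in 1 of the 10 fits that left out a tumor. Gap43, a growth cone protein, had 2.27 ± 0.661 CPM in the responder group (SD, n = 6) against 3.65 ± 0.900 CPM in the non-responder group (SD, n = 4), and Tubb3, a neuronal tubulin, 49.8 ± 6.13 and 33.4 ± 10.3 CPM. The log2 fold changes were -0.68 and 0.57, and neither passed with edgeR (adjusted p = 0.0913 and 0.0599), although both did with DESeq2. Dbh had 0 counts in every tumor, and Elavl4, Uchl1 and Scn10a were at or under the floor in every tumor. The summed level of the 23 markers was 173.6 to 205.0 CPM in responders and 164.9 to 217.1 CPM in non-responders, so the groups overlapped in it. Nearly all of that sum came from Tubb3 and from Eno2, a glycolytic enzyme, which had 130.6 ± 12.3 CPM in the responder group (SD, n = 6) against 147.8 ± 20.2 CPM in the non-responder group (SD, n = 4), so it says little of the other markers.

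None of the 5 neuroendocrine genes that passed the filter, of 10 listed, was called by edgeR, DESeq2 or limma-voom, with 0, 1 and 0 at an unadjusted p under 0.05. Chga, chromogranin A of secretory granules, had the smallest p (log2 fold change 0.70, SE 0.32, with an adjusted p of 0.179 from edgeR). Of 15 Schwann cell and glia genes, 8 passed the filter. None was called by edgeR or limma-voom, where 2 had an unadjusted p under 0.05 with each, and DESeq2 called Erbb3 and Pmp22. Erbb3, the receptor partner for neuregulin in Schwann cells, had a log2 fold change of 0.51 with an SE of 0.16 (adjusted p = 0.0670 by edgeR). The summed level of the glial genes was 83.4 to 98.8 CPM in responders and 75.2 to 82.0 CPM in non-responders, opposite in order to Nefl and Nefm and without overlap.

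Markers of other cell types moved with the response as well. Of 6 macrophage genes, 4 were called higher in responders (Adgre1, Cd68, C1qa and C1qb, log2 fold changes 0.47 to 0.87) and none was called lower. The summed level of the macrophage genes was 2255 to 3403 CPM in responders against 1681 to 2203 CPM in non-responders. Mrc1, the only 1 of the 6 with a lower estimate in responders, had a log2 fold change of -0.13 and did not pass with edgeR (adjusted p = 0.494). Of 6 pericyte genes, only Pdgfrb, a receptor of mural cells, was called, and it fell in responders (211.2 ± 29.8 CPM, SD, n = 6, and 315.1 ± 47.1 CPM, SD, n = 4; log2 fold change -0.58, SE 0.12, with an adjusted p of 0.0266 from edgeR). The summed level of the pericyte genes was 218.8 to 283.3 CPM in responders and 315.2 to 421.1 CPM in non-responders, a sum made up mostly of Pdgfrb. Cspg4 and Abcc9, also on that list, had log2 fold changes of 0.51 and 0.39, in the other direction, and did not pass with edgeR (adjusted p = 0.126 and 0.124). Of 8 fibroblast genes, only Fap, a surface protease of activated fibroblasts, was called by edgeR, lower in responders (log2 fold change -0.78, SE 0.11, with an adjusted p of 0.0207 from edgeR), and the summed level of the list overlapped between groups. DESeq2 also called Thy1, which had a log2 fold change of 0.45, higher in responders (adjusted p = 0.0942 with edgeR). With each tumor left out in turn, Fap passed in 7 of 10 fits, Pdgfrb in 5 and the macrophage genes in between 3 and 7. The median log2 fold changes were 0.56 for macrophage, -0.14 for pericyte and -0.02 for fibroblast genes.

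Among the remaining lists, none of the 6 endothelial, 4 adipocyte, 2 keratinocyte and 4 colon epithelium genes that passed the filter was called by edgeR. In those lists 0, 4, 1 and 3 genes had an unadjusted p under 0.05, and DESeq2 called 0, 4, 1 and 1. The genes with the smallest p in each were Pecam1 (log2 fold change 0.43, edgeR adjusted p = 0.184), Fabp4 (1.08, 0.0503), Trp63 (1.24, 0.0605) and Cdx2 (-0.95, 0.0784). The summed level was 15.6 to 52.1 CPM in responders against 8.54 to 19.2 CPM in non-responders for the adipocyte genes. For the colon epithelium genes it was 17.6 to 42.3 against 40.6 to 84.9 CPM, a sum made up mostly of Krt20. For the endothelial genes the summed level was 95.4 to 152.0 against 78.3 to 116.7 CPM, so that the groups overlapped in all 3 lists. Ptprc, the leukocyte antigen CD45, had 380.5 ± 63.1 CPM in the responder group (SD, n = 6) against 250.6 ± 55.6 CPM in the non-responder group (SD, n = 4; log2 fold change 0.60, edgeR adjusted p = 0.0413). Every responder (326.2 to 499.3 CPM) lay above every non-responder (181.1 to 307.4 CPM) in Ptprc. With log2 CPM of Ptprc as a covariate, the log2 fold change was -1.27 for Nefl and -1.22 for Nefm, and that of Nefh turned to -0.35. Because the groups were apart in Ptprc, this fit cannot separate leukocyte content from the response. The part of these cell types in the Nefl and Nefm difference was not tested.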

How the data were processed

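PolyA RNA from 10 resected tumors was sequenced as paired-end reads. The authors estimated transcript abundance with Kallisto and collapsed them to gene level with tximport against GRCm38 (mm10), and the deposited values are estimated counts (expected counts, fractional for 45.1% of values) with no scaling to depth. The annotation release, tximport scaling and strand setting are not given in the sources used here. Of the rows, 9633 had no gene name.

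Counts were rounded and filtered with filterByExpr (minimum count 10, minimum total 15), which left 16041 genes and at least 99.9% of the counts of each tumor. Libraries were TMM-normalized, and the groups were compared with the two-sided quasi-likelihood test of edgeR 4.0.16 in R 4.3.3, adjusted by Benjamini-Hochberg over all genes tested at 0.05. Negative fold changes mean lower in responders. The SE was obtained from the log2 fold change and the F statistic, as their ratio after taking the root of F. A prior count of 2 was used for log2 CPM. Correlations were tested over all pairings with scipy 1.17.1. The labels do not name a mouse per sample, so p-values measure the spread between these tumors. No batch is given. Levels of single tumors come from totals of 23374649 to 38042544 counts. Sequences, exons and 31-base words were read from GRCm38 with GENCODE, which lacked 18 of the identifiers.

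The members and lists were chosen with earlier results of these data known. Named are all members, every list gene called (at most 6 per list) or else the gene of the list with the smallest p, and the 5 genes most like Nefl and Nefm. Gap43, Tubb3, Rest, the lamins, the kinesins Kif5a and Kif5b, Plec, Dst, Macf1, Ptprc, Pmp22, Sox10, S100b, Mrc1, Thy1, Cspg4, Abcc9, Eno2 and the epithelial genes other than Cdx2 were added after their values were seen. Some listed genes are counted in their list and not reported here by name. Alternatives were DESeq2 1.42.0, limma-voom (limma 3.58.1), RLE factors, no filter, a Ptprc covariate, each tumor left out, Nefl and Nefm summed, a prior count of 0.5 and the longest transcript as length. Leaving out non-responders 1 and 4 together was chosen after seeing the data. The fitting code was tested on simulated data.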

Additional observations from a re-analysis of the deposited data

Results flagged for a closer look

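In 38 sets of values, 10 for members and 28 for gene lists within a group, the most extreme tumor was compared with the rest by Dixon's ratio of its gap to the range of the group, and chance alone is expected to give 1.9 flags. None of the sets of members stood out. The other intermediate filaments, summed, were far higher in non-responder 1 than in the other non-responders (1587 CPM, ratio 0.851). That sum was made up mostly of the lamin Lmna (778.2 ± 261.8 CPM in the non-responder group, SD, n = 4), so it says little of the other genes. In non-responder 1, Des was the lowest of all tumors (37.5 CPM) and Iffo2 the highest (98.8 CPM). The skin keratinocyte genes, summed, were far higher in non-responder 2 (9.18 CPM, ratio 0.922).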

How the results depend on the processing

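The count of called genes was 1293, and 1287 with RLE factors, 931 without the filter, 1082 with limma-voom, 2602 with DESeq2 and 0 with the Ptprc covariate (845 at an unadjusted p under 0.05) or without non-responders 1 and 4 (2766). The calls among the other genes of the pathway were 3, and 2 with limma-voom, where Des was lost, 7 with DESeq2, 0 with the Ptprc covariate and 0 without non-responders 1 and 4. Those in the cell type lists were 10, and 9, 23, 0 and 0 in the same settings. Leaving out each tumor in turn gave between 0 and 1897 called genes, 0 to 6 in the pathway lists and 0 to 19 in the cell type lists. Among the neighbors of Nefl and Nefm 0 were called in each setting. Nefl was lower in responders in all settings tried, with log2 fold changes from -1.99 to -1.27, and Nefm from -2.56 to -1.22. With the counts of both genes summed the log2 fold change was -2.05. Nefl was among the called genes under DESeq2, RLE, no filter and limma-voom and in 9 of the 10 fits without 1 tumor (not without non-responder 4), and Nefm in 7 of 10 (not without responder 3, non-responder 1 or non-responder 4). Neither was called with the Ptprc covariate or without non-responders 1 and 4. Ptprc itself did not overlap between the groups, so the fit with that covariate cannot separate leukocyte content from the response. Nes ranged from -0.15 to -0.02, Vim from 0.04 to 0.28 and Nefh from -0.35 to 0.79. None of the 5 relations within responders passed with a prior count of 0.5. The cause of these differences was not tested. No paired analysis was possible because the labels give no replicate numbers shared between the groups. Ina and Prph were near or under the floor of detection, and Nefh counts were at most 16.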
